A study of Homo sapiens with 6 samples.

Results

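The transcripts described here code for the extracellular matrix, the enzymes that build and cut it, and the integrins that hold cells to it. They were taken from the deposited table by a rule on gene symbols: collagens other than the type I chains COL1A1 and COL1A2 and the type III chain COL3A1, laminins, nidogens, integrins, matrix metalloproteinases and ADAMTS proteases with their TIMP inhibitors, lysyl oxidases and other collagen-modifying enzymes, matrix glycoproteins and proteoglycans. The symbols matched 97 of 10191 rows, each row a RefSeq transcript, and these 97 rows belong to 92 symbols. Of the 97, 91 were coding transcripts and 6 were non-coding transcripts of a matching symbol. RNA-seq was done on Huh7, a long-used human liver tumour cell line, taken 1 week past puromycin selection. The 3 control libraries are of cells that carry a scrambled shRNA, a short hairpin, and the 3 knockdown libraries are of cells whose shRNA targets ABL1, a non-receptor tyrosine kinase. The labels do not say whether replicates were separate cultures, or how many hairpins were used. The p-values therefore rest on the spread among these 6 libraries alone, and that spread may be technical.

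The matrix is a mesh outside the cell. Basement membranes are sheets in which laminin trimers, each of an alpha, a beta and a gamma chain, are tied to collagen networks by nidogens. Fibrillar collagens are hydroxylated before secretion and cross-linked outside the cell by lysyl oxidases. Metalloproteinases cut the mesh, TIMPs block them, and integrins, paired from an alpha and a beta chain, and syndecans bind it at the cell surface. In liver most fibrillar matrix is made by stellate cells and fibroblasts, while hepatocytes and liver tumour cells make part of the matrix that they rest on.

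The 6 libraries held 6651413 to 10487862 counted reads, recovered from the deposited values. Values below are normalized counts, which are these reads on the authors' own library scale. The targeted gene was checked first: the more abundant ABL1 transcript, NM_007313, had 73.4, 71.7 and 71.3 with the scrambled hairpin and 13.7, 10.2 and 9.28 after knockdown. The second tested ABL1 transcript, NM_005157, had 9.17, 6.72 and 10.3 with the scrambled hairpin and 17.6, 19.2 and 24.8 after knockdown. By the limma test described below, NM_007313 fell (log2 change -2.62, adjusted p = 4.11e-06). NM_005157 rose from few reads (log2 change 1.15, adjusted p = 0.0180). As to the label of the line, 6 of 10 listed hepatocyte markers were tested. All 4 that changed (ALB, TF, APOH and APOB) fell, while AFP (mean 235839 against 220476) and TTR (3696 against 4184) were not called. The summed counts of the list were 463852 to 523609 with the scrambled hairpin and 396929 to 442351 after knockdown. Totals over all rows were lower too on this scale, at 8.57e+06 to 8.74e+06 with the scrambled hairpin and 7.52e+06 to 7.78e+06 after knockdown. FGB, a fibrinogen chain, was the 1 listed hepatocyte marker with a row that was too low to test.

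Of the 97 rows, 85 had a mean of at least 10 normalized counts and were tested with limma across all 8600 transcripts that passed this filter. Among the 85, 25 rose and 25 fell at an adjusted p below 0.05. That is 29.4% in each direction and 58.8% together, beside 24.5% of all tested transcripts that rose, 27.4% that fell and 51.9% that changed. The 3 knockdown libraries lay wholly above or wholly below the 3 scrambled ones for 51 of the 85 (60%), beside 58.9% of all transcripts tested. At least 2-fold rises were found in 10 members (11.8%, beside 7.92% of all) and at least 2-fold falls in 13 (15.3%, beside 9.02%). The median log2 change of the members was -0.02, beside 0.0018 over all transcripts. Scaling the libraries to equal totals raised the median of all transcripts to 0.18 and that of the members to 0.16, and gave 28 rises and 18 falls among the members. The shares called and not overlapping lie near those of all transcripts, and the shares of at least 2-fold changes lie above them. No test of the list was made, and what follows describes which members moved. Counts of called members by role below are to be read beside the same 51.9%, and each role holds few rows.

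**Figure D1:**
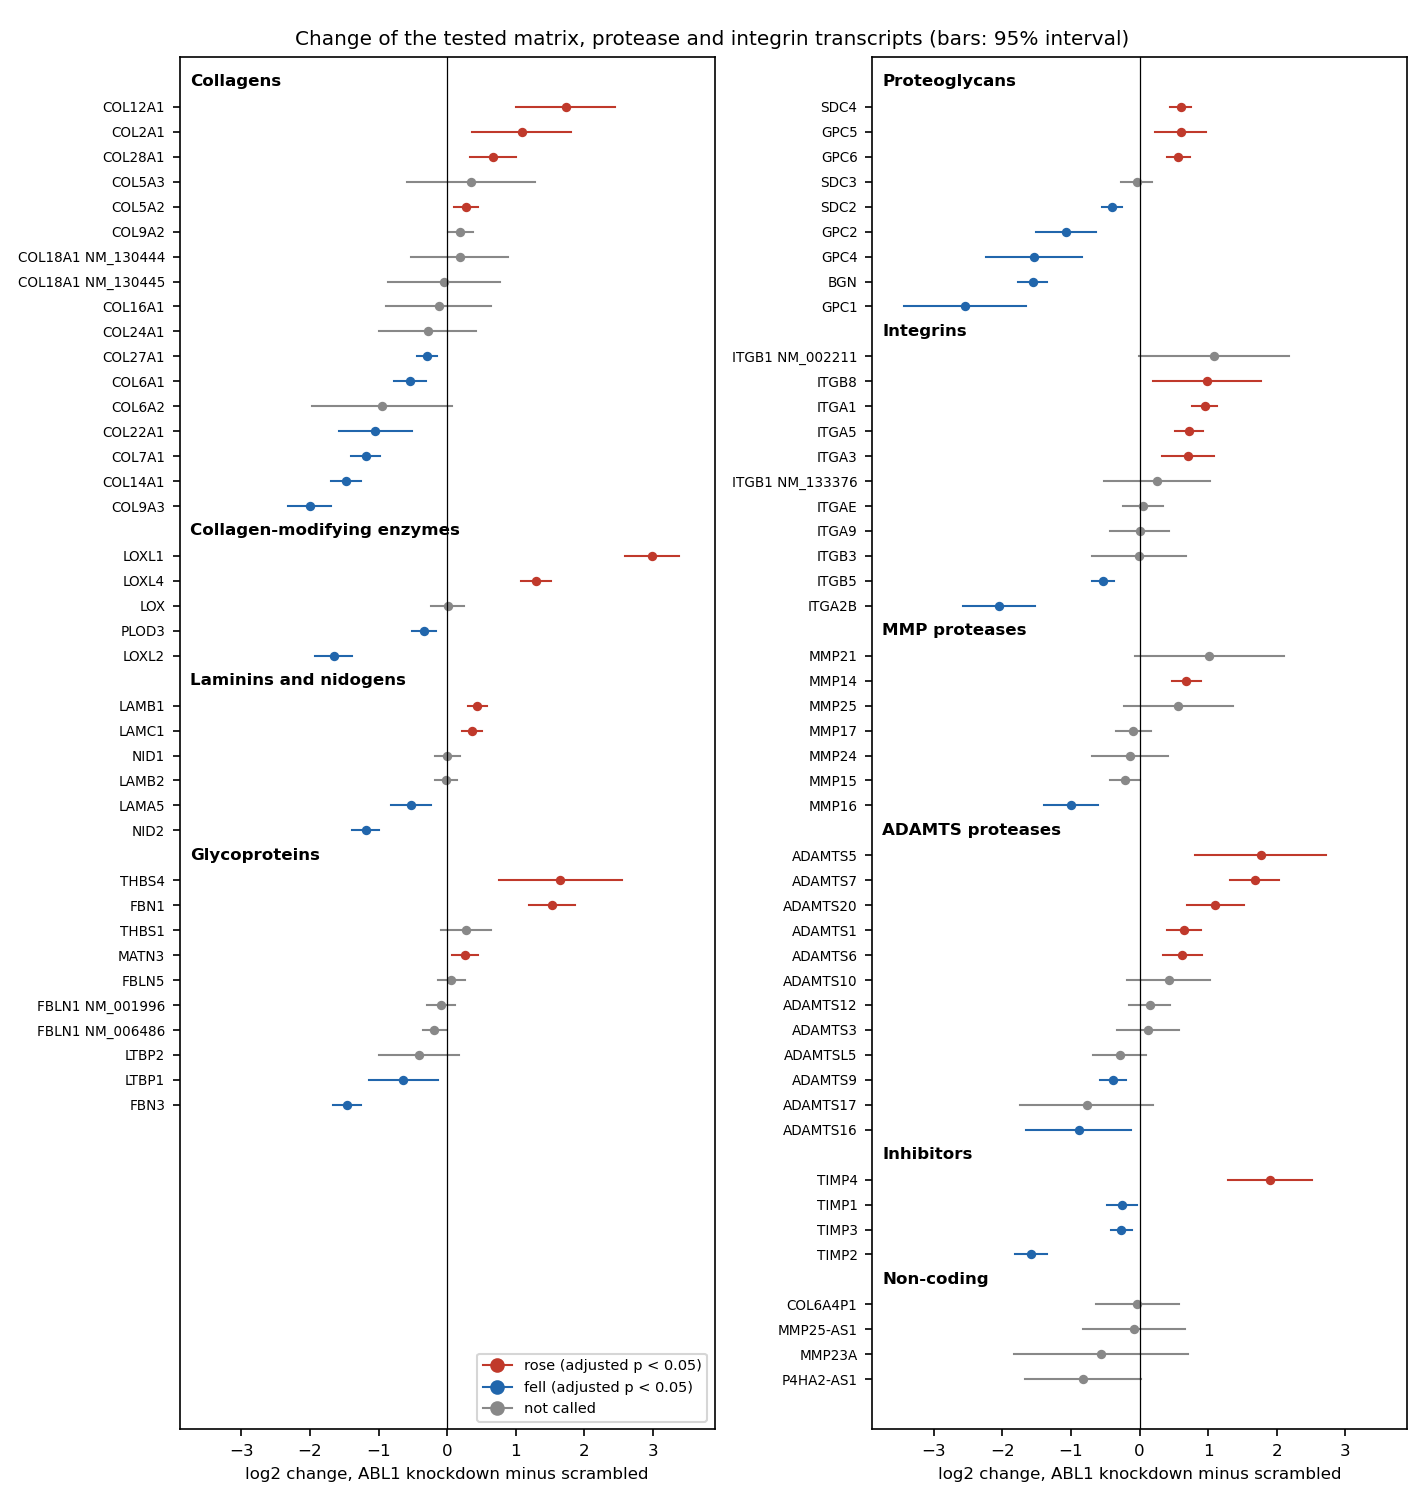
Log2 change (knockdown minus scrambled, x axis) of the 85 tested members by role, with 95% intervals from limma; red rose, blue fell, grey was not called. Nearly every role holds members on both sides of 0, from GPC1 at -2.55 to LOXL1 at 2.99.

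Before the changes, the levels show which of the matched rows were high and which were low. Matrix genes without a row in the deposited table could not be ranked or tested. Among these were fibronectin FN1, perlecan HSPG2, the glypican GPC3, the syndecan SDC1 and the metalloproteinase MMP2. Compared per kilobase of the GENCODE transcript model, nidogen NID1, a linker of basement membranes, was the highest member in both groups, with a mean of 3295 normalized counts per kilobase with the scrambled hairpin and 3304 after knockdown. In the scrambled libraries the syndecans SDC2 (1924) and SDC4 (1909), the lysyl hydroxylase PLOD3 (1726), the membrane protease MMP15 (1585), the fibrillar chain COL5A2 (1390) and the laminin chain LAMB1 (1378) came next on this scale, followed by the integrin chain ITGB5 (1278). SDC2 and SDC4 could not be ordered in the scrambled libraries, since their ratio within a library was 0.989, 1.07 and 0.922. At the other end, 12 rows with means of 3.61 to 7.76 normalized counts over all libraries were not tested. These were COL4A1 (a basement membrane collagen), COL19A1, ITGA11, LAMB4, MMP9 (a gelatinase), TNC (tenascin C), ADAMTS13, ADAMTS19, transcripts NM_006485 and NM_006487 of FBLN1, and the non-coding ADAMTS7P1 and ITGA9-AS1.

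A low row need not mean a low gene. The authors' table gives single transcripts, and rows whose gene has 2 or more RefSeq transcripts had a median mean count of 72.5 over 32 rows, against 139 over 64 rows whose gene has 1. How reads shared by several transcripts were assigned was not given in the sources used here. A change of a row may likewise differ from that of its gene. Called members with a single row include COL14A1, COL12A1 and LTBP1, whose genes have 13, 6 and 27 RefSeq transcripts. ITGB1, the beta chain that pairs with most of the alpha chains below, has 3 RefSeq transcripts, and its 2 rows held 7.07 ± 4.44 and 17.2 ± 5.10 normalized counts in the scrambled libraries (SD, n = 3). Its level in these cells can therefore not be read from the table, and the same holds for COL18A1, whose 2 rows had 22.3 ± 3.96 and 13.9 ± 3.71.

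**Figure D2:**
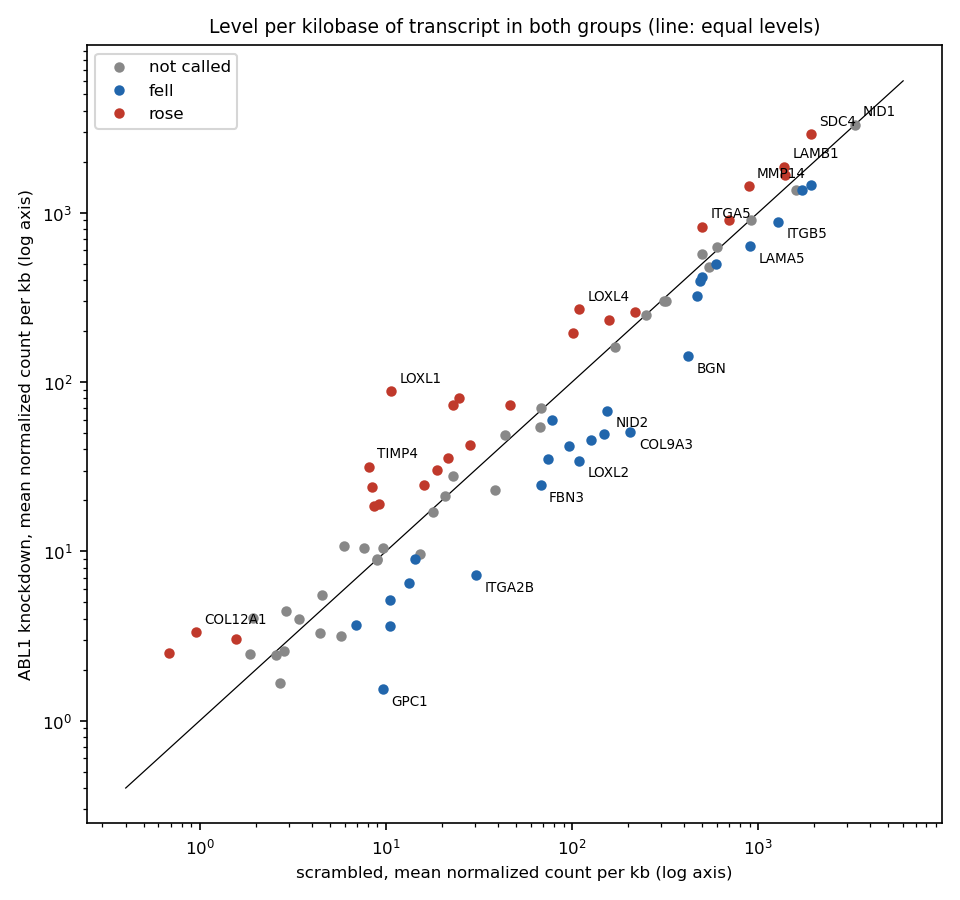
Mean normalized count per kilobase of transcript in the scrambled (x axis) and knockdown libraries (y axis), both log axes, for the tested members with a GENCODE model; the line marks equal levels. NID1 stands at the top on the line, SDC4 and MMP14 lie above it, and BGN, COL9A3 and ITGA2B lie below it.

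Laminin chains moved in different directions. LAMA5, the alpha chain of the main laminins of mature basement membranes, fell, while LAMB1 and LAMC1, the beta and gamma chains that can pair with it, rose. LAMA5 (chromosome 20, 62309065 to 62367312, GRCh38) had 11554, 9294 and 10238 normalized counts with the scrambled hairpin and 6864, 5806 and 9091 after knockdown. Knockdown replicate 3 lay close below the scrambled range and the other two well below it. The log2 change was -0.53 (SE 0.13, adjusted p = 0.00512), and it lost its call with quantile normalization (-0.30, adjusted p = 0.0731) and without the variance trend (adjusted p = 0.0588). LAMB1 (chromosome 7, 107923818 to 108003255) had 7974, 7871 and 7817 with the scrambled hairpin and 11066, 10375 and 10643 after knockdown, a log2 change of 0.44 (SE 0.07, adjusted p = 0.000120). LAMC1 had 5743, 5353 and 5471 against 7203, 6856 and 7290 (log2 change 0.37, adjusted p = 0.000593). The groups of both chains stood apart with a narrow spread. The ratio of LAMB1 to LAMA5 per kilobase, which does not depend on how libraries are scaled, was 1.38, 1.69 and 1.52 with the scrambled hairpin and 3.22, 3.57 and 2.34 after knockdown. LAMB2, the other main beta chain, had 5475, 4925 and 5146 against 5342, 4695 and 5344, with overlapping groups. Its log2 change was -0.02 (95% interval -0.18 to 0.15), and with quantile normalization it was called in the other direction (0.19, adjusted p = 0.0211).

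The nidogens parted as well. NID2 (chromosome 14, 52004803 to 52068994) had 723, 731 and 781 normalized counts with the scrambled hairpin and 331, 309 and 339 after knockdown. All knockdown libraries lay far below every scrambled one, and the log2 change was -1.19 (SE 0.09, adjusted p = 4.44e-07). NID1 had 20951, 18085 and 18923 against 20093, 17690 and 20348, a log2 change of 0.0042 (95% interval -0.18 to 0.18), called as a rise only with quantile normalization (0.32, adjusted p = 0.00262). NID2 was the minor nidogen from the start: per kilobase its ratio to NID1 was 0.0421, 0.0493 and 0.0503 with the scrambled hairpin and 0.0201, 0.0213 and 0.0203 after knockdown.

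Of 17 tested collagen rows, 4 rose and 6 fell. Those that fell belong to several collagen classes. COL9A3 (chromosome 20, 62817062 to 62841159), a chain of the fibril-associated type IX collagen of cartilage, had 583, 401 and 550 normalized counts with the scrambled hairpin and 124, 114 and 137 after knockdown. The groups were far apart, and the log2 change was -2.01 (SE 0.15, adjusted p = 3.22e-07). COL9A2, another chain of type IX, did not follow: it had 1535, 1339 and 1413 against 1642, 1507 and 1744, a log2 change of 0.19 (95% interval 0.01 to 0.37, adjusted p = 0.0748). It was called as a rise without scrambled replicate 1 (0.24, adjusted p = 0.0439) or knockdown replicate 2 (0.25, adjusted p = 0.0361), with equal totals (0.36, adjusted p = 0.00202) and with quantile normalization (0.29, adjusted p = 0.0072). COL14A1, which coats fibrils, had 872, 826 and 745 against 281, 272 and 323 (log2 change -1.48, adjusted p = 2.19e-07). COL7A1, the anchoring fibril collagen beneath epithelia, had 917, 903 and 844 against 370, 434 and 366 (log2 change -1.19, adjusted p = 6.76e-07). In both genes every knockdown library lay far below every scrambled one.

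Smaller falls were found in COL6A1, COL27A1 and COL22A1. COL6A1, a chain of the beaded filaments of type VI, fell from 1984 ± 209 to 1362 ± 185 (log2 change -0.55, adjusted p = 0.00103). Its neighbour COL6A2, 93064 bases away on chromosome 21, had 25.01, 15.7 and 18.8 against 3.91, 13.6 and 15.5 and was not called (log2 change -0.95, adjusted p = 0.108). COL27A1, a fibrillar collagen, fell from 3776 ± 94.3 to 3068 ± 84.7 (log2 change -0.30), and this call was lost with equal totals (-0.13, adjusted p = 0.121). COL22A1 fell from 67.0 ± 8.40 to 32.6 ± 9.91 (log2 change -1.05, adjusted p = 0.00350).

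Among the collagens that rose, COL5A2, a fibrillar chain that sets the width of type I fibrils, was by far the most abundant. It had 10926, 9488 and 9104 normalized counts with the scrambled hairpin and 12415, 11611 and 11472 after knockdown, a log2 change of 0.27 (SE 0.08, adjusted p = 0.0135). The groups did not overlap but lay close. The change was 0.44 with equal totals and 0.57 with quantile normalization, while the call was lost without scrambled replicate 3 (adjusted p = 0.0742), without knockdown replicate 1 (0.0612) and without the variance trend (0.0763). COL12A1, fibril-associated, had 10.8, 7.85 and 15.0 against 34.2, 49.7 and 33.0, so that a clear log2 change of 1.73 (SE 0.33, adjusted p = 0.000850) rested on few reads. COL28A1 went from 80.6 ± 7.77 to 129 ± 8.75 (log2 change 0.67, adjusted p = 0.00313). COL2A1, the main fibrillar collagen of cartilage, had 27.5, 39.2 and 73.2 against 61.6, 110 and 118. Scrambled replicate 3 exceeded knockdown replicate 1, and the rise of 1.09 on the log2 scale lost its call without scrambled replicate 1 (0.78, adjusted p = 0.0615), without knockdown replicate 2 (adjusted p = 0.0533) or 3 (0.0540), and without the variance trend (0.0744). COL24A1 had 27.5, 38.1 and 29.1 against 31.3, 33.9 and 15.5, with overlapping groups. It, COL5A3, COL16A1 and both rows of COL18A1, with group means of 11.5 to 31.6, were not called, with log2 changes from -0.28 to 0.35.

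Lysyl oxidases, which cross-link collagen and elastin, had the largest rise of all members and a large fall. LOXL1 (chromosome 15, 73926458 to 73952137), known for elastic fibre assembly, had 24.2, 26.9 and 24.4 normalized counts with the scrambled hairpin and 202, 181 and 240 after knockdown. The knockdown mean was 8.26 times the scrambled one, with a log2 change of 2.99 (SE 0.18, adjusted p = 7.54e-08). LOXL4 (chromosome 10, 98247690 to 98268250) had 433, 371 and 396 against 1041, 868 and 1044, a log2 change of 1.29 (SE 0.10, adjusted p = 5.60e-07). LOXL2, which also acts on type IV collagen, went the other way, with 411, 341 and 408 against 125, 115 and 125 (log2 change -1.65, SE 0.12, adjusted p = 3.52e-07). None of these 3 had overlapping groups. LOX itself had 1507, 1133 and 1173 against 1240, 1164 and 1405, a log2 change of 0.0064 (95% interval -0.24 to 0.25). Within a library the ratio of LOXL4 to LOXL2 per kilobase was 0.943 to 1.06 with the scrambled hairpin and 7.32 to 8.13 after knockdown, and that of LOXL1 to LOXL2 was 0.0888 to 0.119 and 2.37 to 2.91. PLOD3, which hydroxylates and glycosylates lysines of collagen in the endoplasmic reticulum, had 5393, 4887 and 4844 against 4080, 3577 and 4309, below the scrambled range in each library (log2 change -0.34, adjusted p = 0.00416), with the call lost under equal totals (-0.17, adjusted p = 0.0807) and quantile normalization (-0.17, adjusted p = 0.0720).

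**Figure D3:**
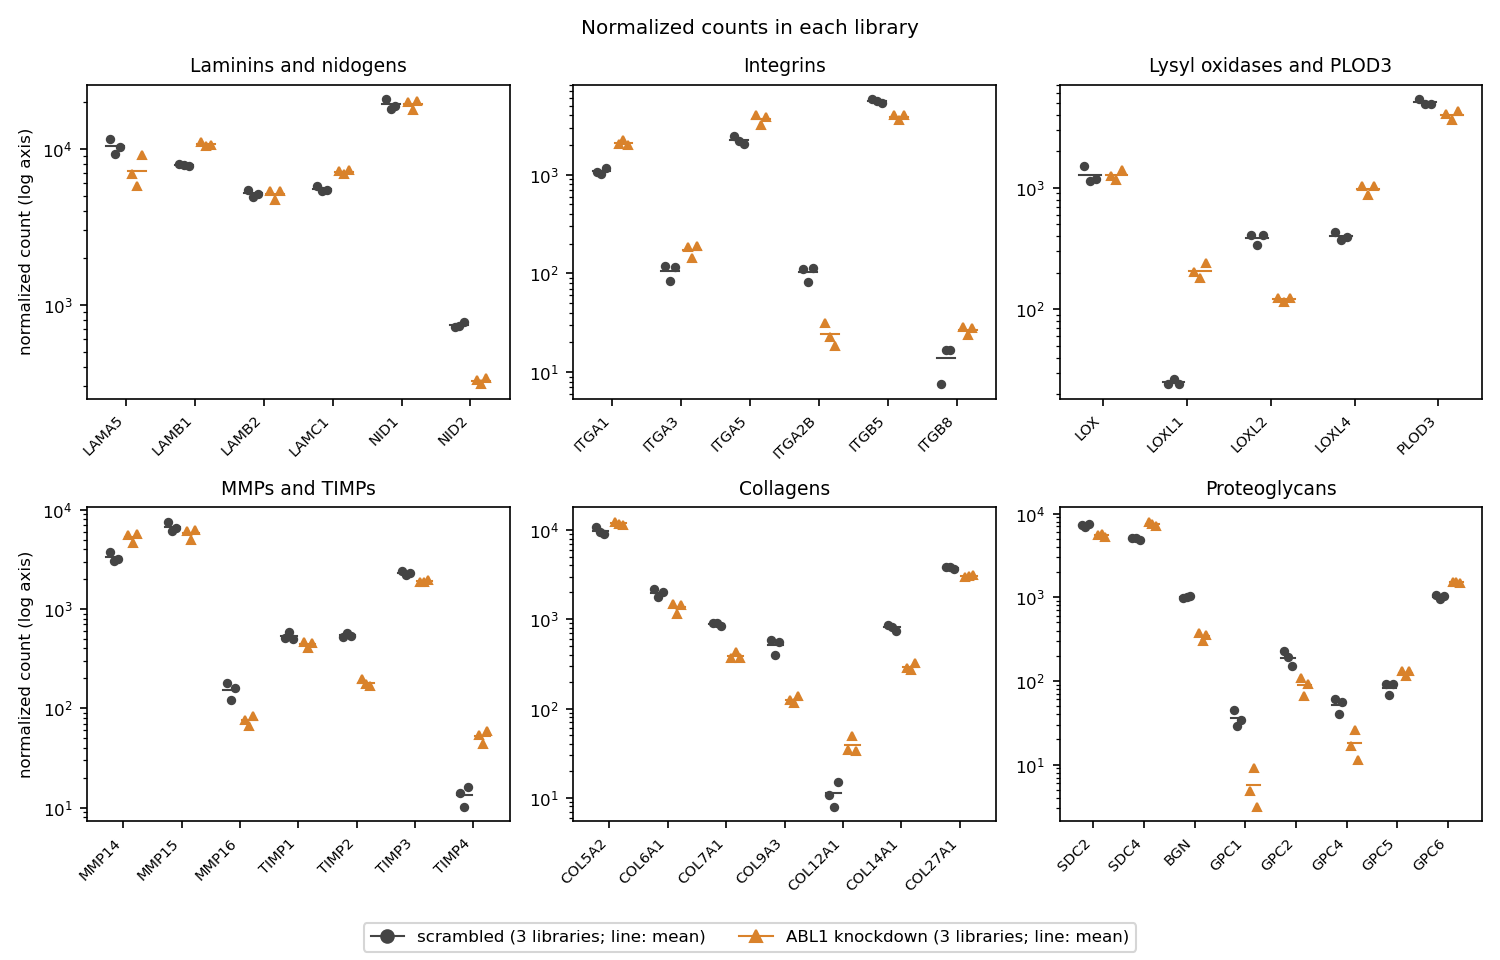
Normalized count (log axis) of members by role in each scrambled (grey circles) and knockdown library (orange triangles), lines for group means. In the panel of lysyl oxidases LOXL1 and LOXL4 lie higher and LOXL2 lower in all 3 knockdown libraries, while LOX overlaps.

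Among the glycoproteins 3 of 10 tested rows rose and 2 fell. The fibrillins, which form the microfibrils that carry elastin and latent growth factors, moved in opposite directions. FBN1 (chromosome 15, 48408306 to 48645849) had 90.9, 86.3 and 118 normalized counts with the scrambled hairpin and 246, 303 and 301 after knockdown (log2 change 1.52, SE 0.15, adjusted p = 4.56e-06). FBN3 (chromosome 19, 8065402 to 8149846) had 631, 643 and 628 against 239, 216 and 235 (log2 change -1.46, SE 0.10, adjusted p = 1.27e-07). Per kilobase the ratio of FBN1 to FBN3 was 0.107 to 0.150 with the scrambled hairpin and 0.822 to 1.12 after knockdown. FBN1 has 4 RefSeq transcripts and FBN3 has 2, so shared reads may affect these levels. LTBP1, which holds latent TGF-beta in the matrix, had 109, 65.0 and 96.6 against 44.996, 59.9 and 66.0. Its groups overlapped at scrambled replicate 2, and its log2 change of -0.64 (adjusted p = 0.0335) lost its call without any of scrambled replicates 1 and 3 and knockdown replicate 1 (adjusted p = 0.136, 0.111 and 0.118), with equal totals (0.106) and without the variance trend (0.0702).

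THBS4, a thrombospondin, had 77.5, 41.5 and 119 against 109, 310 and 364, a log2 change of 1.65 (SE 0.42, adjusted p = 0.00515). Knockdown replicate 1 lay inside the scrambled range, and the call was lost without the variance trend (adjusted p = 0.0577). MATN3, a matrilin, had 560, 510 and 570 against 652, 637 and 682, with groups that stood apart (log2 change 0.27, adjusted p = 0.0229) and lost its call without scrambled replicate 2 (adjusted p = 0.0807), without knockdown replicate 1 (0.0625) or 3 (0.0707), and without the variance trend (0.0503). Its change was 0.44 with equal totals. THBS1 (log2 change 0.27), LTBP2 (-0.41) and FBLN5 (0.06) were not called. FBLN5 had 1186, 1236 and 1421 against 1446, 1303 and 1249, with overlapping groups. With equal totals THBS1 (0.44, adjusted p = 0.0392) and FBLN5 (0.23, adjusted p = 0.0470) were, and THBS1 also without knockdown replicate 2 (0.43, adjusted p = 0.0473). Fibulin FBLN1 had 4 rows, whose GENCODE models end at different positions on chromosome 22 (45601135 for NM_006486, 45563362 for NM_001996). NM_006486, the most abundant, had 1485, 1578 and 1642 against 1281, 1430 and 1427, below the scrambled range in every knockdown library but not called (log2 change -0.19, adjusted p = 0.0662). NM_001996 had 727, 711 and 709 against 611, 649 and 757, with overlapping groups (log2 change -0.10, 95% interval -0.30 to 0.11).

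Proteoglycans had 8 of 9 tested members called (88.9%, beside 51.9% of all transcripts), 3 up and 5 down. Their median mean count was 486, beside 105 over all rows. Biglycan BGN (chromosome X, 153494939 to 153509554), a small leucine-rich proteoglycan that binds collagen and TGF-beta, had 969, 1009 and 1041 normalized counts with the scrambled hairpin and 372, 300 and 353 after knockdown (log2 change -1.56, SE 0.10, adjusted p = 9.65e-08). Of the glypicans, heparan sulfate proteoglycans tied to the membrane by a lipid anchor, GPC1, GPC2 and GPC4 fell and GPC5 and GPC6 rose. GPC1 had 45.02, 29.1 and 33.8 against 4.89, 9.04 and 3.09, a log2 change of -2.55 (SE 0.41, adjusted p = 0.000214) from few reads. This was the largest fall of the tested members with pseudocounts of 1 and 0.5, while with a pseudocount of 5 that of COL9A3 was larger (-1.97 against -1.96). GPC4 had 60.9, 40.3 and 55.4 against 16.6, 26.0 and 11.3 (log2 change -1.54, adjusted p = 0.00150), and GPC2 fell from 188 ± 38.0 to 89.4 ± 21.5 (log2 change -1.08, adjusted p = 0.000713). GPC6 had 1068, 949 and 1041 against 1527, 1509 and 1490 (log2 change 0.57, SE 0.08, adjusted p = 5.66e-05). GPC5, which lies 349292 bases from GPC6 on chromosome 13, went from 83.4 ± 14.0 to 126 ± 10.05 (log2 change 0.60, adjusted p = 0.0111).

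The syndecans are transmembrane proteoglycans, of which syndecan 4 takes part in focal adhesions with integrins. SDC4 (chromosome 20, 45325288 to 45348424) had 5032, 5165 and 4771 normalized counts with the scrambled hairpin and 8010, 7507 and 7187 after knockdown, a log2 change of 0.60 (SE 0.07, adjusted p = 1.69e-05). SDC2 had 7317, 6942 and 7441 against 5590, 5625 and 5207 (log2 change -0.40, SE 0.07, adjusted p = 0.000339). The fall of SDC2 was -0.23 with equal totals and -0.21 with quantile normalization, both called. No library of either gene crossed into the other group. The ratio of SDC4 to SDC2 per kilobase rose from 0.922 to 1.07 in the scrambled libraries to between 1.92 and 2.06 in the knockdown libraries. SDC3 had 547, 492 and 443 against 459.7, 460.02 and 514, with overlapping groups (log2 change -0.04, 95% interval -0.27 to 0.18).

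**Figure D4:**
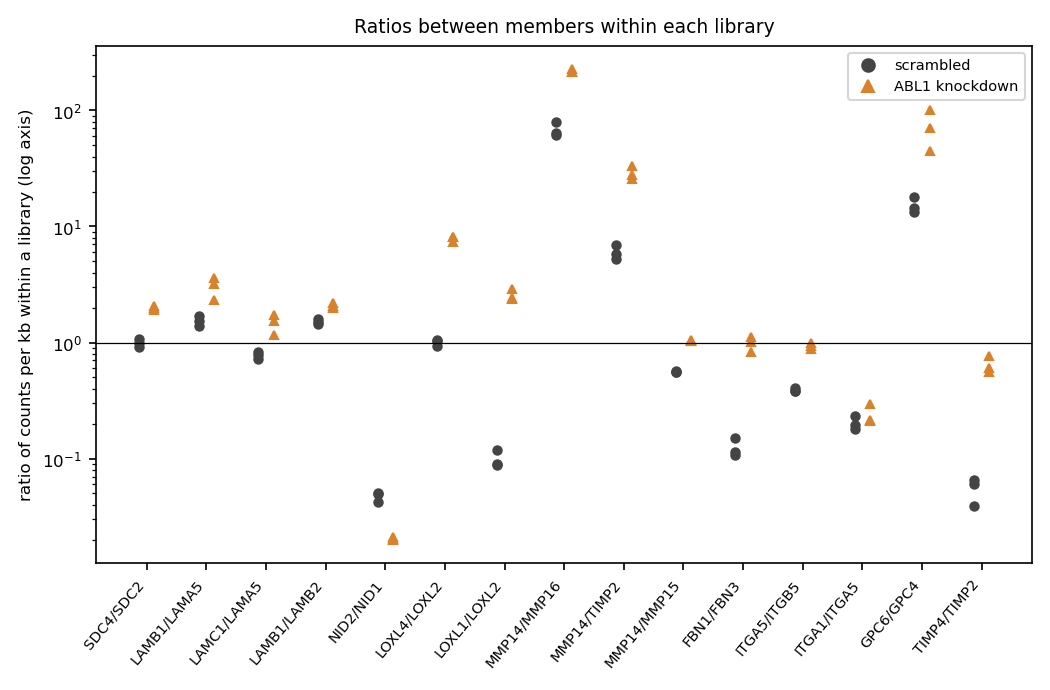
Ratio of normalized counts per kilobase between pairs of members within each library (log axis), scrambled as grey circles and knockdown as orange triangles; the line marks equal levels. SDC4/SDC2 moves from about 1 in the scrambled libraries to 1.92 to 2.06 in the knockdown libraries, and MMP14/MMP15 from 0.557 to 0.565 up to 1.04 to 1.06. The pairs were chosen with the results known, so the ratios are shown without a test.

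Of 11 tested integrin rows 4 rose and 2 fell. The risen alpha chains bind different ligands: ITGA1 collagen and laminin, ITGA3 laminin and ITGA5 fibronectin, each in a pair with the beta 1 chain. ITGA1 had 1060, 1027 and 1160 normalized counts with the scrambled hairpin and 2034, 2254 and 1979 after knockdown (log2 change 0.95, SE 0.08, adjusted p = 1.19e-06). ITGA5 (chromosome 12, 54395261 to 54419460) had 2435, 2191 and 2053 against 4004, 3182 and 3816 (log2 change 0.72, SE 0.10, adjusted p = 4.76e-05). ITGA3 had 118, 84.1 and 115 against 185, 144 and 190 (log2 change 0.71, SE 0.17, adjusted p = 0.00436). All 3 had groups that stood apart. ITGB8, the beta chain of a receptor that activates latent TGF-beta, had 7.50, 16.8 and 16.9 against 28.4, 23.7 and 27.9. Its log2 change of 0.98 (adjusted p = 0.0362) rested on few reads and lost its call with quantile normalization (adjusted p = 0.0619) and without scrambled replicate 1 (0.63, adjusted p = 0.139) or knockdown replicate 1, 2 or 3 (adjusted p = 0.0900, 0.0567 and 0.0846).

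The 2 integrin chains that fell belong to receptors of vitronectin and fibrinogen. ITGB5, which pairs with alpha V and was the most abundant integrin row per kilobase in the scrambled libraries, had 5866, 5591 and 5303 against 4010, 3581 and 3997 (log2 change -0.53, SE 0.07, adjusted p = 6.98e-05). ITGA2B (chromosome 17, 44372183 to 44389505), known as the platelet fibrinogen receptor chain, had 111, 81.8 and 114 against 31.3, 22.6 and 18.6 (log2 change -2.05, SE 0.25, adjusted p = 1.90e-05). ITGB3, its partner in platelets, had 37.5, 24.7 and 45.04 against 50.9, 24.9 and 32.0 (log2 change -0.01, 95% interval -0.70 to 0.67). Per kilobase, ITGA5 stood at 0.381 to 0.408 of ITGB5 in the scrambled libraries and at 0.874 to 0.982 in the knockdown libraries. ITGAE had 276.0, 276.8 and 231 against 239.7, 316 and 257, and ITGA9 had 60.03, 80.7 and 70.4 against 84.1, 64.4 and 62.9. ITGAE (0.05) and ITGA9 (0.0003) had log2 changes near 0 with overlapping groups, at 95% intervals of -0.24 to 0.34 and -0.43 to 0.43, and neither ITGB1 row was called (1.09, adjusted p = 0.0887, and 0.25, adjusted p = 0.582), although the first was without scrambled replicate 1 (1.496, adjusted p = 0.0375).

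Of 7 tested matrix metalloproteinases, MMP14 rose and MMP16 fell. MMP14 (chromosome 14, 22836557 to 22847761), a membrane-bound collagenase that also activates pro-MMP2, had 3717, 3051 and 3168 normalized counts with the scrambled hairpin and 5607, 4634 and 5734 after knockdown (log2 change 0.68, SE 0.10, adjusted p = 8.59e-05). MMP16, a related membrane protease, had 180, 120 and 160 against 76.3, 66.7 and 83.6 (log2 change -0.997, SE 0.18, adjusted p = 0.000558). MMP15, the most abundant membrane-bound member in the scrambled libraries, had 7587, 6145 and 6480 against 6162, 4989 and 6280 and was not called (log2 change -0.22, 95% interval -0.44 to 0.0044). MMP17 had 390, 393 and 444 against 384, 331 and 443 (log2 change -0.09, 95% interval -0.35 to 0.17). The other three, MMP21, MMP24 and MMP25, had group means of 10.3 to 78.5 and adjusted p-values of 0.109 to 0.689. MMP25 was called without the variance trend (0.57, adjusted p = 0.0490).

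TIMPs are the secreted inhibitors of these proteases. All 4 tested ones were called, beside 51.9% of all transcripts: TIMP1, TIMP2 and TIMP3 fell and TIMP4 rose. Their median mean count was 424, beside 105 over all rows. TIMP2 (chromosome 17, 78852977 to 78925387), which also serves as the docking partner of MMP14 on pro-MMP2, had 524, 568 and 538 normalized counts with the scrambled hairpin and 198, 176 and 169 after knockdown (log2 change -1.58, SE 0.11, adjusted p = 1.65e-07). The ratio of MMP14 to TIMP2 per kilobase was 6.95, 5.25 and 5.77 with the scrambled hairpin and 27.8, 25.7 and 33.2 after knockdown. TIMP3, bound to the matrix, had 2399, 2199 and 2309 against 1875, 1886 and 1958, with groups that stood apart (log2 change -0.27, adjusted p = 0.00628), and TIMP1 had 510, 585 and 497 against 462, 408 and 458 (log2 change -0.26, adjusted p = 0.0456). With equal totals neither was called (TIMP3 -0.10, adjusted p = 0.251; TIMP1 -0.09, adjusted p = 0.478), and TIMP1 also lost its call without any 1 of the 6 libraries (adjusted p = 0.0523 to 0.169), without the filter (0.0503), with median-of-ratios factors (0.0558), quantile normalization (0.221) or voom (0.0514), and without the variance trend (0.0909). TIMP4 had 14.2, 10.1 and 15.95 against 53.8, 44.1 and 58.8 (log2 change 1.90, SE 0.28, adjusted p = 0.000124), a rise from few reads in each knockdown library. TIMP1, TIMP3 and TIMP4 lie within synapsin genes on the other strand, and the strand setting of the counting was not given in the sources used here.

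ADAMTS proteases cut proteoglycans and procollagens. Of 11 tested, 5 rose and 2 fell, while the ADAMTS-like ADAMTSL5, which has no catalytic domain, was not called (log2 change -0.29, adjusted p = 0.194), except without scrambled replicate 2 (-0.47, adjusted p = 0.0372). ADAMTS7 (chromosome 15, 78759203 to 78811431), which cuts thrombospondins and cartilage oligomeric matrix protein, had 144, 98.6 and 132 normalized counts with the scrambled hairpin and 408, 333 and 462 after knockdown (log2 change 1.68, SE 0.16, adjusted p = 3.16e-06). It has a pseudogene copy, ADAMTS7P1, with 10.005, 3.36 and 2.81 against 5.87, 6.78 and 7.22, and reads shared with such copies make its value uncertain. ADAMTS20 had 60.0, 54.9 and 42.2 against 99.8, 123 and 116 (log2 change 1.10, adjusted p = 0.000390). ADAMTS1 and ADAMTS5, which cut aggrecan and versican, are neighbours on chromosome 21, 72513 bases apart. ADAMTS1 had 276, 226 and 223 against 395, 364 and 374 (log2 change 0.65, adjusted p = 0.000470). ADAMTS5 had 5.84, 3.36 and 9.38 against 15.7, 22.6 and 29.9 (log2 change 1.76, adjusted p = 0.00491). ADAMTS6 rose from 117 ± 6.22 to 180 ± 8.52 (log2 change 0.62, adjusted p = 0.00169).

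The 2 that fell were ADAMTS9 and ADAMTS16. ADAMTS9, another versican-cutting member and the most abundant of the family per kilobase in the scrambled libraries, had 600, 621 and 571 against 445, 450 and 472 (log2 change -0.39, SE 0.09, adjusted p = 0.00260), with the call lost under equal totals (-0.22, adjusted p = 0.0543). ADAMTS16 had 25.01, 32.5 and 45.04 against 10.8, 23.7 and 20.6 (log2 change -0.89, adjusted p = 0.0489). This call was lost with a pseudocount of 0.5 (adjusted p = 0.0501), without the filter (0.0526), with equal totals (0.104), with voom (0.0510), without the variance trend (0.0762) and without scrambled replicate 2 (0.0871) or 3 (-0.68, 0.194) or knockdown replicate 1 (-0.57, 0.180) or 3 (0.0513). ADAMTS12 had 369, 442 and 339.6 against 474, 346 and 457, with overlapping groups. ADAMTS3, ADAMTS10, ADAMTS12 and ADAMTS17 were not called (log2 changes of 0.13, 0.43, 0.15 and -0.77), but ADAMTS17 was without knockdown replicate 2 (-1.22, adjusted p = 0.0403).

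None of the 4 tested non-coding rows passed limma's threshold: COL6A4P1, MMP23A, MMP25-AS1 and P4HA2-AS1 had adjusted p-values of 0.0962 to 0.934, and the antisense RNAs overlap genes from which reads cannot be told apart without strand. P4HA2-AS1, the 1 with the smallest, had 22.5, 33.6 and 41.3 against 12.7, 32.8 and 12.4, with overlapping groups, and reached the threshold without knockdown replicate 2 (log2 change -1.26, adjusted p = 0.0129).

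To show the DNA in front of members that moved, the 250 bases before the annotated start were read from RefSeq for the 67 of 92 symbols found in its promoter table (GRCh38.p14). They were searched on both strands for 4 short motifs: TGANTCA (AP-1), GGAATG (TEAD), CACGTG (E-box) and GTGGGAA (RBPJ). GGAATG was found before the tabulated start of 6 of 20 risen and 0 of 15 fallen members. Over all 67 members, called or not, it was found before 10 (14.9%), beside 11.9% of the 35116 promoters in the table. The others were rare: TGANTCA was found before 0 risen and 0 fallen members (6.57% of all promoters), CACGTG before 2 risen and 0 fallen (6.34%), and GTGGGAA before 0 of each (5.43%). The table gives 1 start per gene, which need not be that of the measured transcript. For 2 of the 6, FBN1 and ITGA5, the match lies inside the GENCODE model of the measured transcript, so it is not before that transcript's start. The 35116 promoters were not checked in this way. These counts are small, no test was made, and a match shows only that the letters are there. The other 4 risen members with GGAATG, whose matches lie outside the model, are printed 5′ to 3′ on the strand of the gene, with the motif or its reverse complement in capitals. MATN3 holds it in both orientations, and the copy nearer to the start is shown.
ADAMTS6, chr5:65482103-65482132, minus strand: aggaaaagaggcGGAATGagataggacaga
ADAMTS20, chr12:43552206-43552235, minus strand: ctatattggcacCATTCCtgctaggtcgag
COL12A1, chr6:75206203-75206232, minus strand: cctcacgccgaaGGAATGctcgaagtatgc
MATN3, chr2:20012782-20012811, minus strand: gtttctgccgctGGAATGcgcggacaaggc

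Genes that serve the matrix from inside the cell were counted from 5 lists written by function. Over all tested transcripts, 24.5% rose, 27.4% fell and 51.9% changed by limma. Many listed names had no row. Rows were found for 17 of 22 names of collagen folding and export and 19 of 35 of glycosaminoglycan assembly. They were found for 11 of 34 focal adhesion partners, 9 of 16 TGF-beta genes and 11 of 27 other proteases and inhibitors. Of 18 tested transcripts for collagen folding and export, 7 rose and 4 fell. SEC24D, a coat subunit of the vesicles that export procollagen, had 2894 ± 40.7 normalized counts with the scrambled hairpin and 1158 ± 53.5 after knockdown (log2 change -1.32, adjusted p = 3.16e-08), and P4HB, the beta subunit of prolyl 4-hydroxylase, fell by 0.73 on the log2 scale (adjusted p = 4.28e-06). PCOLCE2, an enhancer of procollagen C-proteinase, rose (log2 change 0.84, adjusted p = 7.55e-07). Of 17 tested transcripts for assembly and trimming of glycosaminoglycans, the sugar chains of proteoglycans, 8 rose and 3 fell. HS2ST1 (-1.05, adjusted p = 1.57e-06) and GLCE (-0.99, adjusted p = 7.08e-06), which sulfate and epimerize uronic acid of heparan sulfate, fell on the log2 scale. EXT1, a polymerase of the same chain, rose (0.49, adjusted p = 0.000120).

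Among 10 tested transcripts of focal adhesion partners of integrins, 2 rose and 1 fell. Talin TLN1, which links integrins to actin, rose by 0.31 on the log2 scale (adjusted p = 0.00535) and PARVA by 0.41 (adjusted p = 0.00845), and the adaptor CRKL fell (-0.76, adjusted p = 3.64e-06). Of 9 tested transcripts of the TGF-beta pathway, a main inducer of matrix genes, 2 rose and 4 fell, led by the TGF-beta induced matrix protein TGFBI (log2 change -0.999, adjusted p = 3.21e-07), the repressor SKI (-0.92, adjusted p = 1.13e-05) and the ligand TGFB1 (-0.78, adjusted p = 1.25e-05). Of 12 tested transcripts of other extracellular proteases and inhibitors, 5 rose and 4 fell. ADAM19 rose (log2 change 0.84, adjusted p = 5.68e-05), and the convertase PCSK5 fell (-1.15, adjusted p = 0.000804). The only row of the proprotein convertase FURIN, NM_001289824, rose from few reads, with means of 15.3 and 65.2 (1.97, adjusted p = 0.000135).

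Markers of cells that make much matrix in liver were measured beside these results. Of 6 tested fibroblast and stellate markers of 11 listed, 4 rose (PDGFRA, COL1A2, LUM and COL3A1) and COL1A1 fell. PDGFRB was not called (log2 change -0.12). Their summed counts were 8912 to 9908 with the scrambled hairpin and 13259 to 14609 after knockdown. Most of this sum came from COL1A2, with means of 7820 and 11998. The 4 tested endothelial markers of 6 listed summed to 176 to 204 and 125 to 147, with 3 lower and VWF higher. The 3 tested immune markers of 7 listed summed to 5714 to 6331 and 6544 to 7489, nearly all of it from LYZ, which rose, while the low LAPTM5 and FCER1G fell. No marker with a row had a group mean of 0. All libraries are of the Huh7 line, so these rows do not show that other cell types were present. The part of these markers in the results was not tested. In bulk RNA, fewer cells that express a marker and less RNA per cell cannot be told apart.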

How the data were processed

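The authors deposited 1 table with a signal for every transcript in every library. HISAT2 2.0.4, HTSeq 0.6.1 and hg38 appear, without a stated role, per the submitters' processing notes. Annotation, strand setting and row filter: not given in the sources used here. Each deposited signal is a scaled square root: its square equals a whole number plus 0.375, multiplied by a step that is constant within a library. Undoing this gave whole reads (tolerance 0.05) for 100% of rows in each library. Normalized counts are these reads multiplied by that step relative to the geometric mean of the steps, so the scale stays that of the authors. Rows with a mean of at least 10 were fitted with limma 3.58.1 in R 4.3.3 (mean-variance trend, two-sided) on log2(normalized count + 1), which understates changes of low transcripts, and p-values were Benjamini-Hochberg adjusted over all 8600 rows tested, with a threshold of 0.05. Both steps were tested on simulated data, in which far fewer transcripts changed than here and no difference in totals was set between groups. The simulation therefore does not check the limma calls or the scale under the conditions of these data. Because the values are a transformed signal, edgeR was not used, and voom on the recovered reads was run as an alternative. No libraries were duplicates: within groups, chi-square divided by its degrees of freedom was 5.95 to 10.7.

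Transcript positions and lengths came from GENCODE 29 models (GRCh38) matched by RefSeq identifier. The rule on symbols uses no measured value, but it, the members and the lists were chosen with earlier results of these data known. The rule for naming gave values in every library for up to 4 called members per role by smallest p and the 2 most abundant uncalled ones. Values in every library of further members were added after they were seen. Alternatives covered pseudocount, filter, scaling, variance model, threshold, summed rows, a replicate block and leaving out each library.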

Additional observations from a re-analysis of the deposited data

How the results depend on the processing

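The counts of members held under all 19 alternatives within 1.5 times: 20 to 28 rose and 18 to 28 fell, and leaving out 1 library gave 22 to 25 rises and 22 to 26 falls. Over all transcripts 3263 to 4821 changed, and 3932 to 4146 with 1 library left out. With equal totals, 63.8% of all calls were rises, against 47.2% with the authors' scale. Of the 50 called members, 37 kept their call under each of the 18 alternatives run for single members in which they were tested (20 rises, 17 falls), and 13 lost it under at least 1. These 13 are named above with the settings. Another 13 members that were not called gained a call under at least 1 alternative, 5 of them with the replicate block. LAMB2 was the only member whose direction turned with a call, from -0.02 to 0.19 with quantile normalization. The cause was not tested.

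The labels number the replicates 1 to 3 in each group, but same-numbered libraries deviated together only weakly (correlations 0.0471, 0.0765 and 0.0768), so the numbers were not taken to pair them. With the replicate block 4821 transcripts changed in place of 4460, and 27 members rose and 28 fell. The 5 members gained with it were COL9A2 (0.19, adjusted p = 0.0436), MMP15 (-0.22, 0.0159), MMP21 (1.01, 0.0451), P4HA2-AS1 (-0.82, 0.0411) and transcript NM_006486 of FBLN1 (-0.19, 0.0459), by limma. Depth limits members under about 50 normalized counts, whose intervals are wide.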
